A study of Mus musculus with 12 samples.

Results

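The comparison set cells sorted from S phase to mitosis (S/G2/M) against cells in G1 within the intra-aortic haematopoietic clusters of the mouse embryo at E10.5, the stage named for the days of gestation. Its members were all genes that the authors had tested between these groups, 12984 of the 24138 genes in their deposited table. A further 11147 genes were not tested and 7 had too many reads. The aorta-gonad-mesonephros region, in which the dorsal aorta runs, was taken from C57BL/6 embryos, and cluster cells were sorted as SSEA-1-CD31+CD117+. The G1 group came from Fucci Red animals and was sorted for the mKO2 reporter, and the S/G2/M group came from Fucci Green animals and was sorted for mAG. Each group held 3 samples, sequenced from both ends of the fragments. Phase and reporter strain differed together, so they cannot be told apart. The sources used here do not say whether embryos were pooled or whether samples came from different litters.

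Clusters of rounded cells bud from the endothelium lining the embryonic aorta, and the first haematopoietic stem and progenitor cells arise in them. Fucci reporters read the phase of a cell from protein breakdown: mKO2 is joined to a piece of Cdt1, which is kept in G1, and mAG to a piece of Geminin, which is kept from S phase until mitosis. As a cell passes through the cycle, histone messages build up in S phase together with DNA synthesis, and the messages of the mitotic machinery build up later, in G2 and M.

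The values are the authors' group values in FPKM, fragments scaled to gene length and to the size of the library, with 1 value per gene and group and none per sample. The spread between samples and the depth of the libraries are therefore unknown. The words risen, fallen and changed are kept for genes whose q-value, the p-value adjusted for all genes tested, was under 0.05 in the authors' deposited table. It is not stated if that test took each sample as a replicate, so its p-values measure no more than differences between these samples, which may be technical in origin. Fold changes are S/G2/M over G1 unless stated, and log2 fold changes are given for genes above 0 FPKM in both groups.

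In S/G2/M cells, 7 histone genes and 6 genes of mitosis rose, and 19 genes of lists for differentiated neurons fell. According to the authors' deposited table, a total of 85 genes changed, 0.655% of those tested, with 25 risen (0.193%) and 60 fallen (0.462%). Of the 16 risen genes above 0 in both groups, 6 belonged to 6 lists of mitotic genes and 7 to the replication-dependent histones. Of the 31 fallen genes above 0 in both groups, 18 belonged to 5 lists of neuronal genes. All lists were chosen with earlier results of these data known, so counts of called members are descriptions and no independent support. The other 38 changed genes were listed at 0 in 1 group. Over all tested genes above 0 the median log2 fold change was -0.04, with 6116 genes higher and 6868 lower in S/G2/M.

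**Figure D1:**
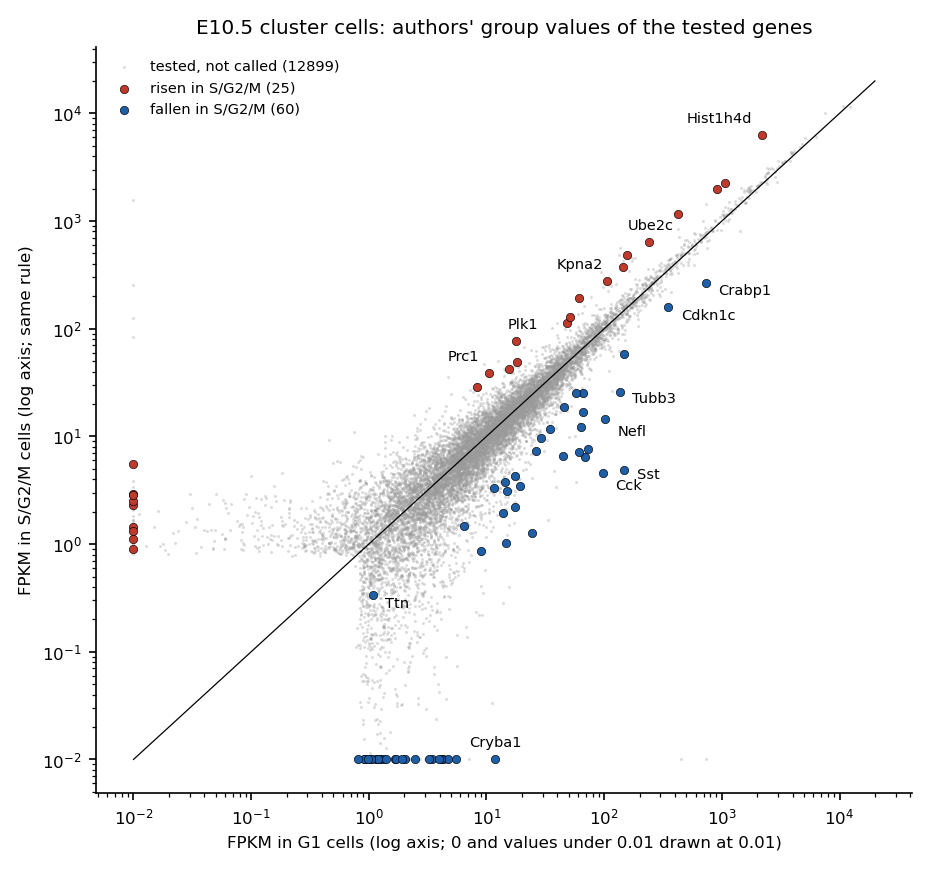
Authors' group value of each of the 12984 tested genes in G1 cells (horizontal axis, FPKM, log scale) against S/G2/M cells (vertical axis, FPKM, log scale) at E10.5. The 25 risen genes (red) and 60 fallen genes (blue) include 38 genes drawn on the edges because they are listed at 0 in 1 group, and the line marks equal values.

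The called genes above 0 all differed by more than a doubling, the smallest change being 1.08 on the log2 scale. Size alone did not make a call, since 854 genes that reached 5 FPKM in either group had a log2 fold change of at least 1 in size and 46 of them (5.39%) were called. In the authors' deposited table, p was under 0.05 before adjustment for 868 genes, 6.69% of those tested, with 312 higher (2.4%) and 556 lower (4.28%) in S/G2/M. The share called varied with level. By FPKM in the higher group, it was 2.25% of 756 genes of at least 100 FPKM and 0.617% of 3081 from 20 to 100 FPKM. It was lowest from 5 to 20 FPKM, at 0.259% of 5027 genes. Below that it was 0.785% of 3820 genes from 1 to 5 FPKM and 2.0% of 300 under 1 FPKM. Each called gene under 1 FPKM was listed at 0 in 1 group.

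None of the sort markers was called. Pecam1 (CD31) had 39.8 FPKM in G1 against 30.2 FPKM in S/G2/M, and Kit (CD117) had 15.1 and 12.7 FPKM. Fut4, whose enzyme makes the SSEA-1 epitope, had 3.45 and 1.88 FPKM. Cdh5, which encodes VE-cadherin, had 143 and 102 FPKM, and Cd34, a surface marker of endothelium and blood progenitors, had 81.6 and 90.1 FPKM. RNA of endothelial and progenitor markers, which define the labelled cell type, was thus present in both groups.

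Of 114 tested genes in the 6 mitotic lists, 6 rose in S/G2/M (5.26%, against 0.193% of all tested genes) and none fell. The choice of members with earlier results known can raise such a share. Of the 114, 106 were higher in S/G2/M, 52 of them with p under 0.05 before adjustment in the authors' deposited table, as were 2.4% of all tested genes. Their median log2 fold change was 0.75.

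The kinases and cyclins that drive entry into mitosis held 2 of the 6. These were 9.09% of the list, against 0.193% of all tested genes. Plk1, a kinase of spindle assembly and mitotic exit, had 17.9 FPKM in G1 against 76.1 FPKM in S/G2/M. Cdk1, the cyclin-dependent kinase of mitotic entry on chromosome 10 (69336635 to 69352912, mm10), rose 2.69-fold, from 15.6 to 42.0 FPKM. Its partners did not pass the test. Ccnb1 (cyclin B1) had 32.0 and 68.6 FPKM, its q being 0.235 in the authors' deposited table, and Ccnb2 had 64.6 and 139.9 FPKM. Aurka, the Aurora kinase of the spindle poles, had 18.4 and 44.4 FPKM, and Aurkb, the Aurora kinase of the chromosomal passenger complex, had 33.9 and 71.2 FPKM. Cks2, a small CDK subunit, had 36.1 and 102 FPKM, the q being 0.108 in the authors' deposited table. Of the 22 tested members of this list 21 were higher, and the exception was Cdc25b, a phosphatase that activates CDKs, at 4.46 and 4.36 FPKM.

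Spindle motors and microtubule proteins had 2 risen genes among 25 (8.0%, against 0.193% of all tested genes), Kif11 and Prc1. Of the 25, 23 were higher. Prc1 crosslinks microtubules at the central spindle, and its gene on chromosome 7 (80294451 to 80316259, mm10) had 10.52 FPKM in G1 against 38.6 FPKM in S/G2/M, the second largest fold change of the risen mitotic genes after Plk1. Hmmr, a spindle assembly factor, had 13.7 and 31.5 FPKM. Kif4, a chromosome-bound motor, had 8.91 and 23.4 FPKM. Both stood just outside the threshold, with q-values of 0.0511 and 0.0558 in the authors' deposited table. Tacc3, a spindle microtubule protein and the list's most abundant member in G1, had 46.7 and 52.0 FPKM. The spindle proteins thus ranged from a log2 fold change of 1.88 for Prc1 to -0.63 for Kifc5b, a minus-end motor gene.

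No gene of the kinetochore and the spindle checkpoint rose, against 0.193% of all tested genes. Of 29 tested, 27 were higher, 13 of them with p under 0.05 before adjustment in the authors' deposited table. Their median log2 fold change was 0.75. Ndc80, the outer kinetochore protein that binds microtubules, had 7.27 FPKM in G1 against 26.7 FPKM in S/G2/M, its q being 0.0511 in the authors' deposited table. Its complex partners Spc24 and Spc25 had 40.4 and 81.9 FPKM and 18.7 and 40.4 FPKM. Casc5, also called Knl1, a kinetochore scaffold, had 4.33 and 13.2 FPKM. The checkpoint genes Bub3 (47.3 and 73.3 FPKM) and Mad2l1 (39.0 and 56.97 FPKM) differed less. Cenpa, the centromeric histone H3 variant, had 35.8 and 64.9 FPKM.

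Among genes of the anaphase promoting complex and mitotic exit, 1 of 18 rose (5.56%, against 0.193% of all tested genes). It was Ube2c (2.66-fold). Ube2c encodes a ubiquitin-conjugating enzyme that works with that complex, a ubiquitin ligase. Ube2s, its partner enzyme, had 87.2 and 119.5 FPKM, and the median of this list, 0.42, was the lowest of the mitotic lists. Among 11 condensation genes Top2a rose (9.09%, against 0.193% of all tested genes). Top2a encodes the topoisomerase that untangles sister chromatids, and it had 51.5 FPKM in G1 against 128 FPKM in S/G2/M. Smc4, a condensin subunit, had 34.0 and 66.0 FPKM, its q being 0.0893 in the authors' deposited table. All 13 genes of the chromosomal passenger complex and cytokinesis were higher. Of these, 7 had p under 0.05 before adjustment in the authors' deposited table. Prc1, which this list shares, was the 1 that rose (7.69%, against 0.193% of all tested genes).

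The promoters of the 6 risen mitotic genes are shown because these genes moved together and because CCAAT boxes and the element TTTGAA (the cell cycle genes homology region) are known features of genes expressed in G2 and M. RefSeq promoters (GRCm38.p6) were read from 250 bases before to 50 bases after the start, and CCAAT was searched on both strands, as were the hexamer TTTGAA and, separately, its variant TTCGAA. The 120 bases before each start are printed 5′ to 3′ on the gene's strand, with matches on either strand in capitals.
Plk1, chr7:122159315-122159434, plus strand: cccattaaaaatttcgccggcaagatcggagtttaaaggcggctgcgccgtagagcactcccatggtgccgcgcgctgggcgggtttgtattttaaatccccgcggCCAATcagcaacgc
Cdk1, chr10:69352913-69353032, minus strand: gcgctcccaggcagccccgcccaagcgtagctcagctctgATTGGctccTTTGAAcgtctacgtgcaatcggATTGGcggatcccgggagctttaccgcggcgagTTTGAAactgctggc
Prc1, chr7:80294331-80294450, plus strand: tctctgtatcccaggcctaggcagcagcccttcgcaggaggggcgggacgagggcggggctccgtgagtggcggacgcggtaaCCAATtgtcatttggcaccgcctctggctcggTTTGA
Kif11, chr19:37376262-37376381, plus strand: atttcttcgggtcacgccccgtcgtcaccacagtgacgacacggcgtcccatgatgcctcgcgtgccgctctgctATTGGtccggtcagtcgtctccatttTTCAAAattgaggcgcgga
Ube2c, chr2:164769809-164769928, plus strand: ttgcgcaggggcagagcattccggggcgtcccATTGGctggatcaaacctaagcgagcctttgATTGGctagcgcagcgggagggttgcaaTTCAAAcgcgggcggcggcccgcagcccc
Top2a, chr11:99024190-99024309, minus strand: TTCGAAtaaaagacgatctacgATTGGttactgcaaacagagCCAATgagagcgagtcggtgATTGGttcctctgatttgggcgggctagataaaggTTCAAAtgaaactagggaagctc
All 6 promoters held CCAAT and all 6 held TTTGAA or TTCGAA within the 300 bases. Bases shortly after the start were found in an annotated transcript of each gene but Kif11, whose start is therefore less certain. In Prc1 the hexamer begins 5 bases before the start, so its last letter lies outside the printed bases, and in Plk1 it begins 30 bases after the start. Top2a held the most matches, 6 of CCAAT and 4 of the hexamers, and Ube2c had 6 of CCAAT and 1 hexamer. A promoter was found for 97 of the 114 tested mitotic genes. CCAAT occurred in 61.9% of these, a hexamer in 58.8% and both in 45.4%. Among the 10021 tested genes with a promoter, the shares were 39.3%, 13.6% and 5.93%, and in all 32851 promoters of the same length they were 37.4%, 19.2% and 7.52%. Histone genes held both motifs about as often as the mitotic lists: of 56 tested, 51 had a promoter, with CCAAT in 84.3%, a hexamer in 49.0% and both in 47.1%. All 7 risen histone genes held CCAAT, and 5 of them also held a hexamer. For the replication lists, 56 of 67 genes had a promoter, with 53.6%, 19.6% and 12.5%. A match is a run of letters and not a measured binding site.

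**Figure D2:**
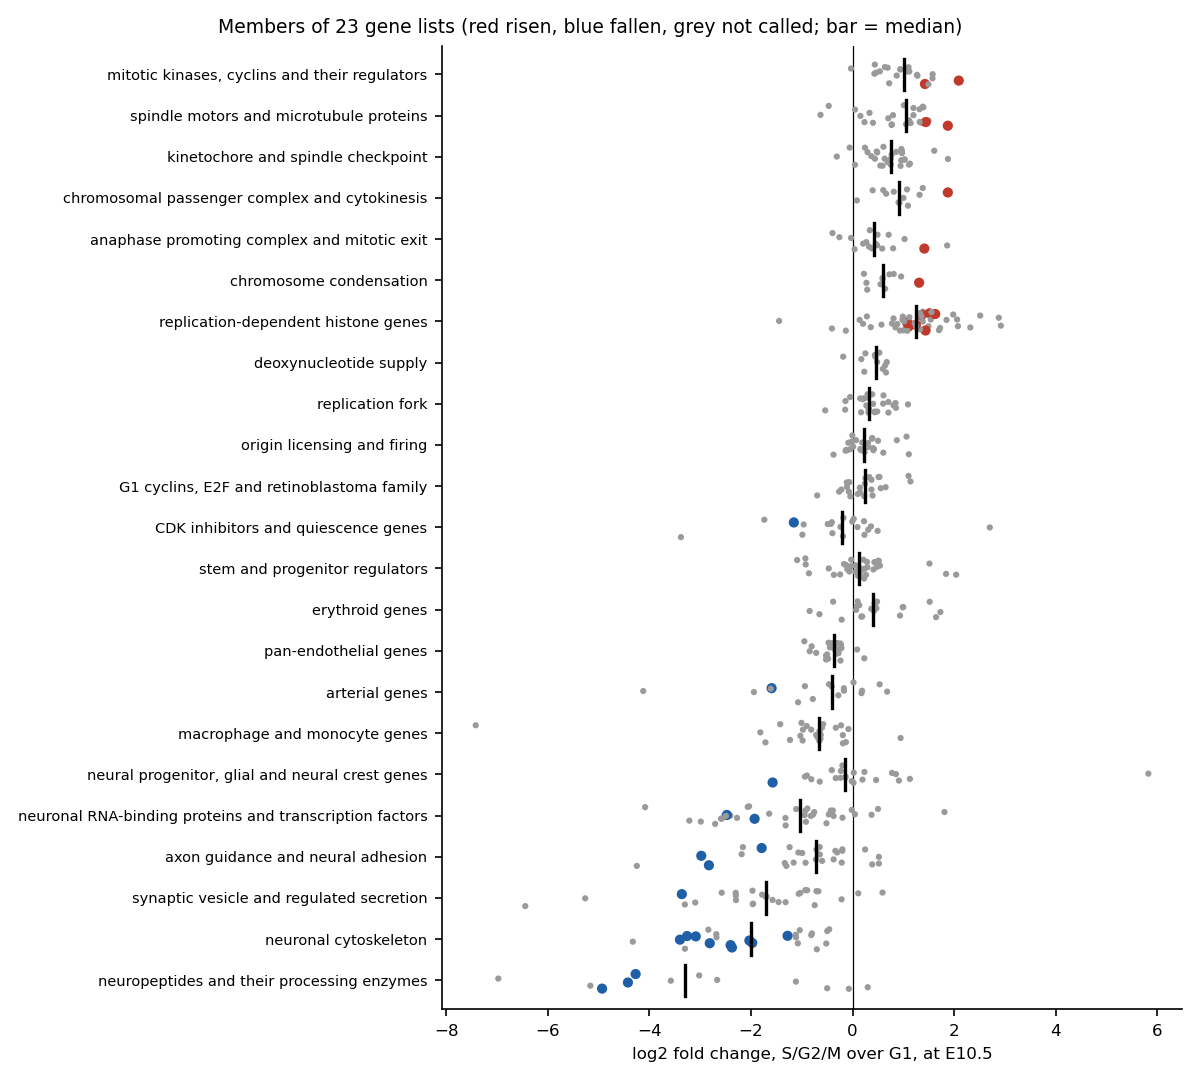
Log2 fold change of S/G2/M over G1 at E10.5 (horizontal axis) for the tested members of 23 gene lists above 0 in both groups, 1 point per gene, with the list median as a black bar. Red points rose and blue points fell. The mitotic and histone lists sit to the right of 0 and the neuronal lists to the left, with medians of 1.25 for histones and -2.00 for the neuronal cytoskeleton.

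Messages of the replication-dependent histone genes are made in S phase, lack introns and mostly lack a poly(A) tail, and they supply the proteins that package new DNA. Of 67 such genes listed, 56 were tested, 7 rose (12.5%, against 0.193% of all tested genes) and none fell. Of the 56, 53 were higher in S/G2/M, 21 of them with p under 0.05 before adjustment in the authors' deposited table. Their median log2 fold change was 1.25. This list, too, was chosen with earlier results of these data known. The summed FPKM of the 56 was 8106 in G1 against 19522 in S/G2/M, a ratio of 2.41.

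All 7 risen histone genes lie on chromosome 13, between 21715713 and 23764412 (mm10), where 47 of the 56 tested histone genes lie. Hist1h4d, which encodes histone H4, was the most abundant, with 2189 FPKM in G1 against 6261 FPKM in S/G2/M (2.86-fold). The linker histone genes Hist1h1e (1067 and 2257 FPKM) and Hist1h1a (146 and 375 FPKM) rose. Among genes for H2B, Hist1h2bf rose 3.09-fold from 155 FPKM, Hist1h2be 2.37-fold from 48.2 FPKM and Hist1h2bl 2.14-fold from 918 FPKM. Hist1h2ak, which encodes histone H2A, had 427 and 1156 FPKM. Copies of these genes are near-identical and share reads, so the division between single copies is uncertain. The locus listed for Hist1h2be runs from 23583670 to 23621124, far longer than those of the other risen histone genes. Whether its value is that of a single short copy was not tested.

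By class, 13 of 13 genes for H2A, 10 of 10 for H3, 11 of 12 for H4, 14 of 15 for H2B and 5 of 6 for H1 were higher in S/G2/M. The median log2 fold changes were 1.38 for H2A, 1.36 for H4, 1.10 for H1, 1.10 for H3 and 1.03 for H2B. No H3 gene passed the test, although their summed FPKM was 453 in G1 against 1018 in S/G2/M. The lower genes were Hist1h1t (3.11 and 2.35 FPKM), Hist4h4 (11.7 and 10.7 FPKM) and Hist3h2ba (52.5 and 19.2 FPKM), all 3 without a call and named after their values were seen.

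**Figure D3:**
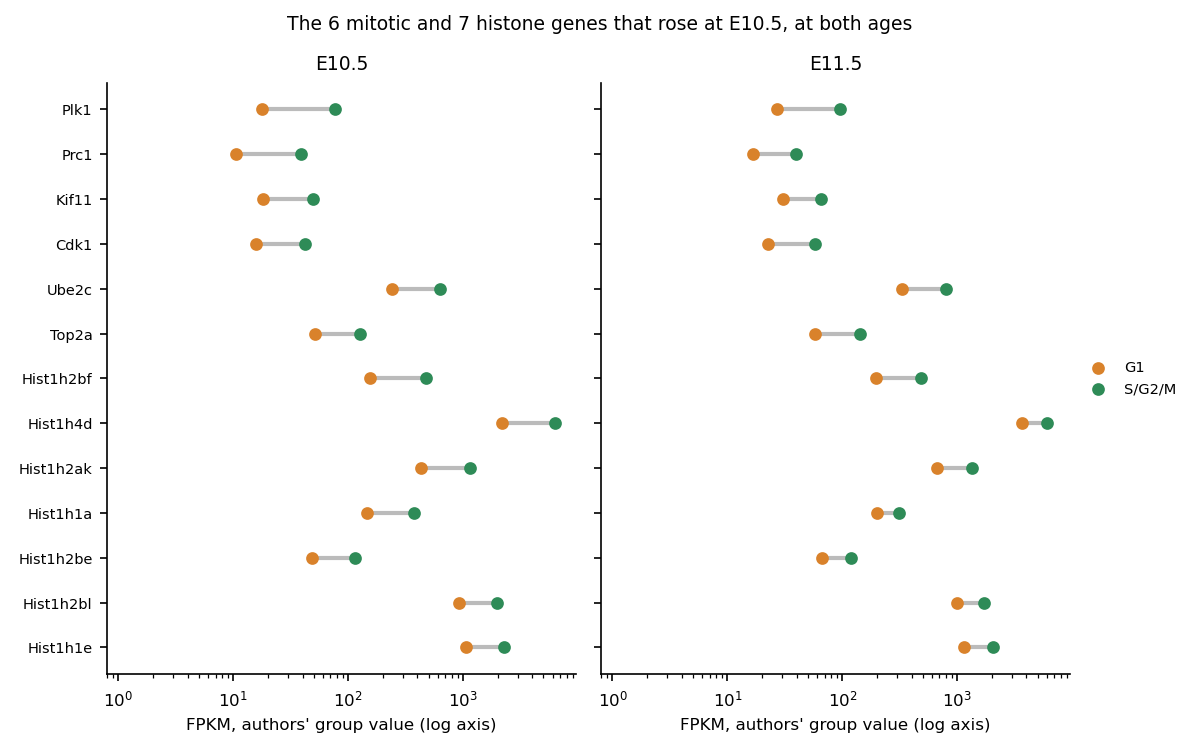
Authors' group values (FPKM, log axis) in G1 cells (orange) and S/G2/M cells (green) of the 6 mitotic and 7 histone genes that rose at E10.5, with the same genes at E11.5 on the right. All 13 lie higher in S/G2/M at both ages. The tables of each age were normalized separately.

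Genes of DNA replication copy and supply the new strands. Across 3 lists of replication genes none of 67 tested genes was called, against 0.655% of all tested genes. A list of this size without a call is near that share. Of the 67, 54 were higher in S/G2/M and the median log2 fold change was 0.32. In the authors' deposited table, p was under 0.05 before adjustment for 7 of the 67, all higher, as were 2.4% of all tested genes. Origin licensing and firing had the smallest median of these lists, 0.23. Mcm7, a subunit of the replicative helicase, had 86.4 and 83.6 FPKM, and Mcm6 had 80.7 and 92.1 FPKM. Genes of deoxynucleotide supply had the largest median of the 3 lists, 0.47. Rrm2, the small subunit of ribonucleotide reductase, had 129 and 176 FPKM, and Dctpp1, a dCTP pyrophosphatase, had 181 and 289.5 FPKM. Lig1, the DNA ligase that joins replicated fragments, had 62.1 and 87.0 FPKM. None of the 24 tested G1 cyclin, E2F and retinoblastoma family genes was called, against 0.655% of all tested genes. Ccnd1 (cyclin D1) had 101 FPKM in G1 against 98.3 FPKM in S/G2/M, and Cdk4, its kinase, had 446 and 494 FPKM. Of 22 CDK inhibitor and quiescence genes 1 fell (4.55%, against 0.462% of all tested genes), Cdkn1c, the imprinted inhibitor p57. Cdkn1c had 352 FPKM in G1 against 158 FPKM in S/G2/M. Of the 22, 8 were higher and 14 lower in S/G2/M. Trp53 had 224 and 263 FPKM.

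The remaining 3 risen genes above 0 in both groups belonged to no list. Kpna2, an importin that carries proteins into the nucleus, had 105 FPKM in G1 against 277 FPKM in S/G2/M (2.65-fold). The gene listed jointly as Glul and Mir8114, where Glul is glutamine synthetase, had 61.1 and 191 FPKM, and Scaf1, a splicing-related factor, had 8.25 and 28.5 FPKM. At E11.5 Kpna2 was again higher in S/G2/M, at 126 and 287 FPKM, whereas Glul had 145 and 69.2 FPKM and Scaf1 had 13.6 and 11.96 FPKM. Where the authors deposited the comparison a second time, in the other order, the S/G2/M value of Glul was 168 FPKM.

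Of 130 tested genes in 5 neuronal lists 19 fell in S/G2/M (14.6%, against 0.462% of all tested genes). Only 1 rose (0.769%, against 0.193% of all tested genes). Of the 130, 118 were lower in S/G2/M, 54 of them with p under 0.05 before adjustment in the authors' deposited table, as were 4.28% of all tested genes. Their median log2 fold change was -1.29. The members were chosen with earlier results of these data known, which can raise the share that fell. Fewer cells of a type and less RNA per cell cannot be told apart in these bulk samples. Whether neuronal cells were present in the sorted samples was not tested.

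The neuronal cytoskeleton was the list with the most fallen genes. All 24 tested members were lower in S/G2/M and 9 fell (37.5%, against 0.462% of all tested genes). Of the 24, 18 had p under 0.05 before adjustment in the authors' deposited table. The summed FPKM of the 24 was 1405 in G1 against 498 in S/G2/M. Among neurofilament genes, Nefl (light chain, chromosome 14, 68083884 to 68087737, mm10) fell 7.03-fold, from 101 to 14.4 FPKM, and Nefm (medium chain) fell 3.94-fold, from 66.7 to 17.0 FPKM. Ina, another neurofilament protein, had 68.0 and 6.89 FPKM but a p of 0.193 in the authors' deposited table.

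Among the other 7 fallen members, Tubb4a, a neuronal beta-tubulin, fell 10.6-fold, from 68.6 to 6.50 FPKM. Map2, a microtubule protein of dendrites, had 17.5 and 4.28 FPKM, Rtn1, a reticulon of neurons, had 73.1 and 7.63 FPKM, and Dpysl5, a collapsin response mediator, had 45.9 and 18.9 FPKM. Tubb3, Dcx and Stmn2 complete the 9. Stmn3, a stathmin like Stmn2, had 33.6 and 1.67 FPKM, a larger fold than any of the 9, and did not pass, with a p of 0.196 in the authors' deposited table. Other members differed less. Basp1, a membrane protein of growth cones, had 115 and 81.7 FPKM, and Map1b, a microtubule protein of growing axons, had 131 and 80.6 FPKM.

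**Figure D4:**
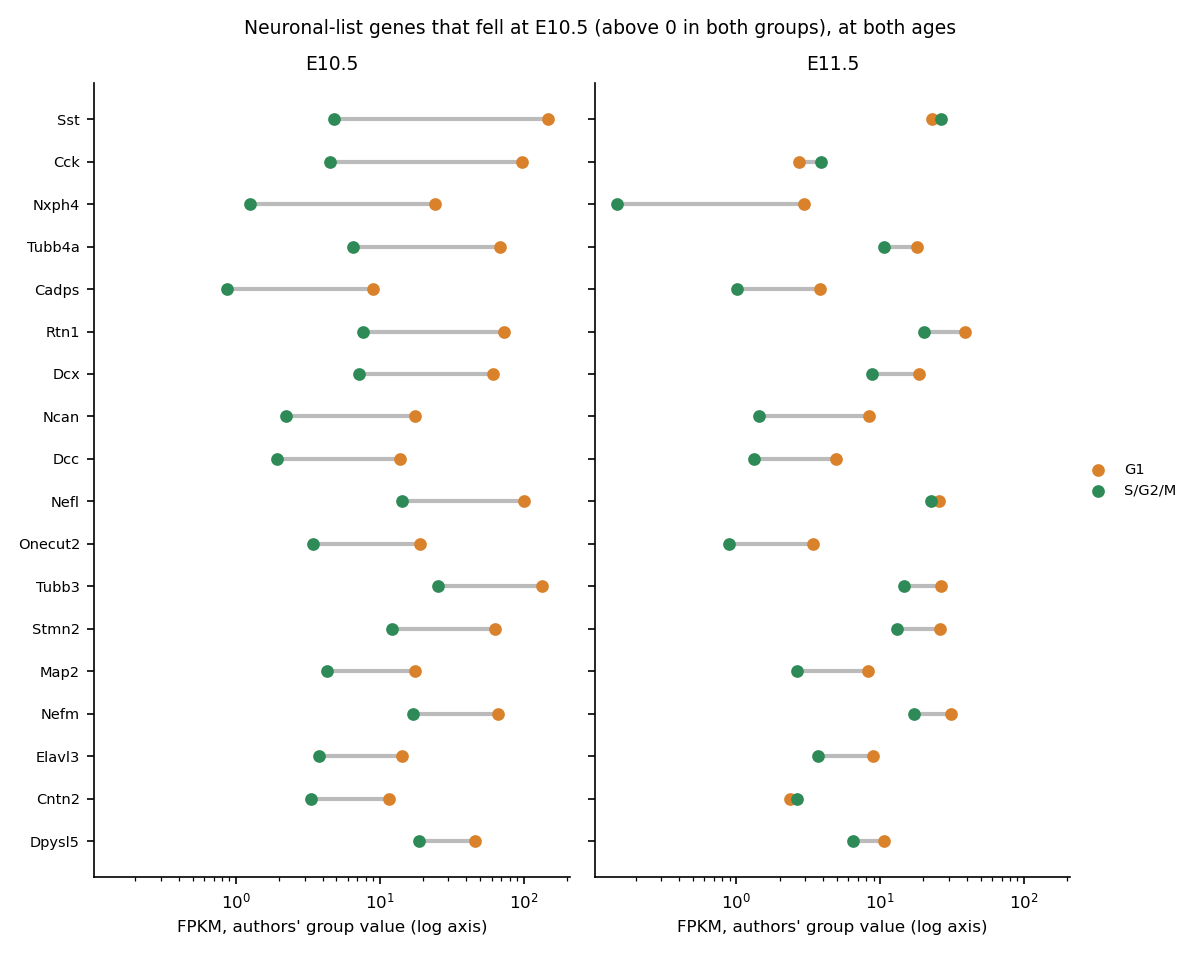
Authors' group values (FPKM, log axis) in G1 cells (orange) and S/G2/M cells (green) of the 18 genes of the neuronal lists that fell at E10.5 and were above 0 in both groups, with the same genes at E11.5 on the right. At E10.5 all 18 lie lower in S/G2/M, as do 15 of them at E11.5. The tables of each age were normalized separately.

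Neuropeptides, secreted by neurons and endocrine cells, had the lowest median of the 42 lists, -3.30. Sst (somatostatin), Cck (cholecystokinin) and Nxph4, a neurexophilin, fell. Together these 3 were 23.1% of the 13 tested members, against 0.462% of all tested genes. Cck had 97.5 FPKM in G1 against 4.54 FPKM in S/G2/M, and Nxph4 had 24.3 and 1.26 FPKM. The list's summed FPKM was 333 in G1 against 56.9 in S/G2/M. Penk, the enkephalin precursor, went the other way, being listed at 0 in G1 against 2.87 FPKM in S/G2/M, and was the 1 risen gene of the neuronal lists. The processing enzyme gene Cpe, used in many secretory cells, had 36.1 and 25.6 FPKM.

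Of 29 tested genes of synaptic vesicles and regulated secretion, 27 were lower, with a median of -1.70. Of the 29, 2 fell (6.9%, against 0.462% of all tested genes). Cadps, which primes dense-core vesicles for release, had 8.93 FPKM in G1 against 0.867 FPKM in S/G2/M. Slc17a6, the vesicular glutamate transporter VGLUT2, had 1.93 FPKM in G1 and was listed at 0 in S/G2/M. Snap25, a membrane fusion protein of synapses, had 15.5 and 0.403 FPKM with a p of 0.0718 in the authors' deposited table, and Syp (synaptophysin) had 7.52 and 1.26 FPKM. The sympathetic enzyme genes Th and Dbh had 2.72 and 0.552 FPKM and 12.97 and 3.31 FPKM, without a call.

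Among 28 genes of axon guidance and neural adhesion 3 fell (10.7%, against 0.462% of all tested genes). Of the 28, 24 were lower, with a median of -0.72. Ncan (neurocan), Dcc, a receptor for netrin, and Cntn2, an axonal adhesion molecule, were the 3. Dcc had 13.7 and 1.93 FPKM, and Cntn2 had 11.6 and 3.35 FPKM. Ntn1, which encodes the ligand netrin, had 7.55 and 10.8 FPKM without a call. Among 36 neuronal RNA-binding proteins and transcription factors 2 fell (5.56%, against 0.462% of all tested genes). Of the 36, 32 were lower, with a median of -1.03. Onecut2, a homeobox factor of motor and sensory neurons, fell 5.57-fold, from 19.1 to 3.44 FPKM, and Elavl3 was the other. Celf3 and Elavl4, both neuronal RNA-binding proteins, had 24.4 and 4.10 FPKM and 30.6 and 7.32 FPKM, the q of each being 0.0602 in the authors' deposited table. Isl1 (islet 1) had 11.1 and 10.99 FPKM.

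Of 23 tested genes of neural progenitors, glia and neural crest 1 fell (4.35%, against 0.462% of all tested genes). It was Ngfr, the low-affinity neurotrophin receptor, with 34.99 FPKM in G1 against 11.7 FPKM in S/G2/M. The others had no call, 10 of the 23 were higher, and the median was -0.14. Nes (nestin) had 39.1 and 35.5 FPKM, Msi1 (musashi 1) had 101 and 88.3 FPKM, Fabp7 had 78.7 and 62.5 FPKM, and Sox2 had 4.33 and 7.84 FPKM. The crest and glial factor Sox10 had 15.8 and 11.9 FPKM. The list's summed FPKM was 420.2 in G1 against 344 in S/G2/M, a ratio of 0.819, where that of the neuronal cytoskeleton was 0.355. The difference between these lists was not tested.

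The other 8 fallen genes above 0 in both groups belonged to no list. The rule for named genes covered 1 of these, Scrt2, a transcriptional repressor of the nervous system, with 44.4 FPKM in G1 against 6.62 FPKM in S/G2/M. Others, named after their values were seen, were Gnao1, Thsd7a, Chrna4, Crabp1, Foxp4 and Trp53inp2. Crabp1, a cytoplasmic carrier of retinoic acid, was the most abundant fallen gene, with 729.8 FPKM in G1 against 268 FPKM in S/G2/M. Chrna4, a nicotinic acetylcholine receptor subunit, had 26.4 and 7.26 FPKM, and Gnao1, the G protein subunit of neurons, had 14.998 and 3.12 FPKM.

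Other cell types were read from their marker lists. Of 18 tested muscle genes 2 fell (11.1%, against 0.462% of all tested genes) and 15 were lower. The 2 were Apobec2 (14.7 and 1.02 FPKM, a call lost in the table of the other order) and Ttn, which encodes titin (1.08 and 0.336 FPKM). The summed FPKM of the 18 was 311 in G1 against 165 in S/G2/M. Actc1, the cardiac actin gene, had 133 and 62.7 FPKM, its q being 0.0558 in the authors' deposited table. None of 27 macrophage and monocyte genes was called, against 0.655% of all tested genes, and 26 were lower. Their median was -0.65, with a summed FPKM of 855 in G1 against 548 in S/G2/M. Fcer1g, a signalling chain of Fc receptors, had 194 and 123 FPKM, and Tyrobp, an adaptor of myeloid receptors, had 156 and 136 FPKM. None of the tested members of these muscle and macrophage lists was listed at 0 in either group. Outside the lists, the muscle genes Myh8 and Trim63, named after their values were seen, fell. They had 1.04 and 2.03 FPKM in G1 and were listed at 0 in S/G2/M. The part of muscle and macrophage genes in the changes of other genes was not tested.

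Of 24 pan-endothelial genes 22 were lower in S/G2/M, and the median was -0.37. None was called, against 0.655% of all tested genes. Emcn (endomucin) had 112 and 92.2 FPKM, and Sox18, an endothelial transcription factor, had 105 and 90.0 FPKM. Of 17 arterial genes 1 fell (5.88%, against 0.462% of all tested genes). It was the gap junction gene Gja5, whose call was also lost in the other order. Efnb2, which encodes ephrin B2, had 44.2 and 39.3 FPKM, and Hey1, a target of Notch, had 33.9 and 38.6 FPKM. No venous or lymphatic gene of 9 tested was called, against 0.655% of all tested genes. Aplnr, the apelin receptor, had 161 and 132 FPKM. Among 38 stem and progenitor regulators none was called, against 0.655% of all tested genes, and 23 were higher, with a median of 0.13. Lmo2, a partner of the blood transcription factors, had 43.7 and 61.6 FPKM, Spi1 (PU.1) had 25.5 and 29.8 FPKM, and Ptprc (CD45) had 4.77 and 4.24 FPKM.

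Erythroid genes were higher in 18 of 22 tested cases, with a median of 0.39. None was called, against 0.655% of all tested genes. Hba-x, the embryonic zeta globin gene, had 7462 FPKM in G1 against 10168 FPKM in S/G2/M. Among megakaryocyte and platelet genes Ppbp, a platelet chemokine, had 12.5 and 50.4 FPKM, its q being 0.126 in the authors' deposited table, whereas Pf4, another platelet chemokine, had 191 and 134 FPKM. Cytosolic ribosomal protein genes, the most abundant list, had a median of 0.11 with 73 of 78 higher, and oxidative phosphorylation subunits had a median of 0.01 with 41 of 78 higher. No member of either list was called, against 0.655% of all tested genes.

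The 38 changed genes listed at 0 in 1 group made up 27.3% of the 139 such genes tested, whereas 0.366% of the 12845 genes above 0 in both groups were called. All 38 carried 5e-05 as their p, which no gene of the authors' deposited table went below. They numbered 9 at 0 in G1 and 29 at 0 in S/G2/M. Their values in the other group were low, from 0.906 to 5.51 FPKM for the risen and from 0.816 to 11.7 FPKM for the fallen. The highest of the fallen after Cryba1, a crystallin gene, were Lrrc10b (5.46 FPKM), Ttc9b (4.70 FPKM), Ppp1r1c (4.31 FPKM), Isg20 (4.11 FPKM) and Rpp25 (3.94 FPKM). The highest of the risen were AA474331 (5.51 FPKM), Gpx6 (2.95 FPKM), Penk, Erich6 (2.54 FPKM), 4930563E18Rik (2.29 FPKM) and Angptl6 (1.43 FPKM). No fold is given against a value of 0. Of the genes at 0 that were not called, 6 had values above the highest called one, and all 6 were small RNA genes. Among them was Snora44, a small nucleolar RNA gene named after its values were seen. It had 1574 FPKM in S/G2/M, 0 in G1, and a p of 0.168 in the authors' deposited table.

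The authors also deposited this comparison with the groups in the other order, which is a repeat of the test and not independent evidence. It called 91 genes (0.701% of 12984), of which 83 were among the 85, all in the same direction. Gja5 and Apobec2 lost their calls there, with q-values of 0.0565 and 0.0752 in the authors' deposited table of that order. The 8 genes that it called beyond these were Hmmr, Kif4, Casc5, Celf3, Elavl4, Sema3b, Rgmb and Grb2, named after their values were seen. With them 4 of the 25 spindle genes rose in that table, in place of 2.

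At E11.5 the same phases were compared in other samples, 3 for each phase, sorted in the same way from Fucci Red and Fucci Green embryos. There 87 of 12414 tested genes changed (0.701%), 17 risen (0.137%) and 70 fallen (0.564%). Of the 85 genes changed at E10.5, 56 were tested at E11.5, and 4 of these were called there in the same direction: Plk1, Top2a, Ube2c and Ncan. Of the 17 risen genes tested at E11.5, 14 were higher in S/G2/M, and of the 39 fallen ones, 34 were lower. The difference between the ages was not tested, since the tables used here give 1 value per group.

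The values of each age come from separately normalized tables. The median log2 fold change of the 6 mitotic lists was 0.75 at E10.5 and 0.80 at E11.5, and Prc1 had 16.8 FPKM in G1 against 39.7 FPKM in S/G2/M at E11.5. The histone list had a median of 1.25 at E10.5 and 0.85 at E11.5. No histone gene was called at E11.5, against 0.701% of all genes tested there. Hist1h4d had 3625 and 6037 FPKM there. The 5 neuronal lists had a median of -1.29 at E10.5 and -0.90 at E11.5. For the mitotic and neuronal lists the E11.5 median covers only genes tested at both ages. Fewer neuronal genes were tested at E11.5, as in the synaptic list with 21 in place of 29. Of the fallen neuronal genes above 0, which were chosen by their call at E10.5, Sst, Cck and Cntn2 were higher in S/G2/M at E11.5, with 2.71 and 3.90 FPKM for Cck. Nefl had 25.5 and 22.7 FPKM at E11.5, and Tubb4a had 18.1 and 10.7 FPKM.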

How the data were processed

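RNA of sorted cluster cells was measured by sequencing in 12 samples, of which the 6 at E10.5 form the comparison and the 6 at E11.5 are set beside it. The authors deposited tables laid out as Cuffdiff writes its gene test, and per the file headers each holds 1 FPKM value for each of the groups compared. The p-value and q-value of each gene are the authors' own, from the deposited tables. The submitters' processing notes name CASAVA 1.4, TopHat, Cuffdiff and the build mm10, with no role or order, while the labels' protocols name bowtie and the build mm8. Coordinates are given as mm10, since 22438 of 22763 deposited loci overlapped the RefSeq gene of the same name in GRCm38, and deposited starts, which count from 0, are printed counting from 1. The sources used here do not say if reads were stranded. The tables write G2 for the S/G2/M group, the only other sort.

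Fold changes were computed as the ratio of the authors' FPKM values with no pseudocount, and calls rest on the deposited q-values, which equalled a Benjamini-Hochberg adjustment over the tested genes. No test of samples was possible. Members of 42 gene lists were counted by call and direction, and the median log2 fold change was taken over members that both groups list above 0. The members and lists were chosen with earlier results of these data known. Named were the 15 largest rises and falls of at least 5 FPKM, the 6 highest genes at 0 per direction, called members of each list with its most abundant members to make 3, and a fixed set (Cdt1, Gmnn, Pecam1, Kit, Fut4, Runx1, Mki67). Not every gene so selected is printed, some results are not reported here, and uncalled list members were added as examples after their values were seen. Deposited names that join several genes, 218 in all, share reads. Promoters were taken from RefSeq, using the start nearest to the deposited locus. Alternatives were q-values of 0.01 and 0.085, minimum levels, a pseudocount of 1, genes at 0 left out, a fold minimum, median scaling and the table in the other order. The fold and call arithmetic was tried on genes given known folds and q-values. Its outcome was fixed in advance and bears on no result. The tools were pandas 2.3.3 and numpy 2.4.6 under Python 3.11.15, with matplotlib 3.10.9 for plots.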

Additional observations from a re-analysis of the deposited data

How the results depend on the processing

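At a q-value under 0.01 no gene was called (0 of 12984, by the authors' Cuffdiff test), since the smallest q in the authors' deposited table was 0.0101, while 868 genes had p under 0.05 before adjustment. In the authors' deposited table of the other order the smallest q was 0.00999, and 65 genes lay under 0.01. The counts of genes changed, risen and fallen, of lists with a call, of genes called in both tables and at both ages, and of called histone, mitotic kinase, spindle, neuronal cytoskeleton, neuropeptide and axon guidance genes were therefore all 0 under 0.01. Among genes reaching 5 FPKM in either group, 49 genes were changed in place of 85 and 32 fallen in place of 60, with 47 called in both tables. With genes at 0 left out 47 were changed, 16 risen and 31 fallen, with 45 called in both tables. The spindle list had 4 risen genes in place of 2 at a q-value under 0.085 and in the table of the other order. The median log2 fold change of primordial germ cell genes was 0.14 and turned to -0.11 with a pseudocount of 1, and the cause was not tested. With that pseudocount 9 other list medians moved in size but kept their direction, and 32 stayed close. Among genes reaching 5 FPKM in either group, 8 list medians moved in size and 34 stayed close. Of 142 genes selected by the naming rule and having a fold, 40 lost their call under 0.01 and 1 gained a call under 0.085. In the table of the other order 2 lost theirs (Gja5 and Apobec2). Uncalled list members added as examples are outside that count, and some, such as Hmmr and Kif4, also had a q-value under 0.085. The median ratio of the groups over 7566 genes of at least 5 FPKM was 1.003, and scaling by it turned no list's median to the other side of 0. The calls are the authors' q-values, which scaling does not touch. No paired analysis was possible because the tables hold 1 value per group and their columns carry no replicate numbers, and for the same reason leaving out each replicate was not run. The unknown depth limits every gene of low FPKM, and a call missed there does not show that values were alike.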
